A study of Mus musculus with 16 samples.

Results

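Genes that mark neurogliaform cells and other cortical interneurons of caudal origin were examined on arrays of cells sorted as parvalbumin interneurons. The members were 10 genes chosen by symbol, Cxcl14, Adarb2, Ndnf, Reln, Lamp5, Prox1, Kit, Id2, Cnr1 and Sncg, out of 30428 genes with a transcript cluster on the array. Each member had 1 cluster, and all 10 were among the 20285 genes tested after the third with the lowest mean was left out. The mice were C57BL/6J, 30 days old and labelled male. The arrays formed 4 groups of 4: PVCre/+; tdTomato/+ dorsal striatum, the same genotype's motor and somatosensory cortex, PV-tdTomato/+ dorsal striatum and PV-tdTomato/+ motor and somatosensory cortex. In the PVCre genotype the Cre recombinase is driven by the parvalbumin gene and switches on a separate tdTomato reporter. In the PV-tdTomato genotype, which carries no Cre, a parvalbumin transgene makes the red fluorescent protein tdTomato directly. Red cells were dissociated and sorted, and each array held the RNA of 2000 cells pooled from 2 to 4 mice.

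Cortical interneurons come from 2 main embryonic sources. The medial ganglionic eminence gives parvalbumin and somatostatin cells, and the caudal ganglionic eminence gives most neurogliaform, Vip and Cck cells. Neurogliaform cells have a dense, fine axon, release GABA diffusely and populate layer 1 and the layers under it; Reln, Lamp5, Ndnf and Npy are used to recognise them. Adarb2 and Prox1 mark cells of caudal origin in general, and Sncg and Cnr1 mark the Cck basket cells among them. Mature parvalbumin cells of the mouse cortex are known to hold little of Adarb2, Reln, Ndnf, Lamp5 and Cnr1.

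Levels are given as RMA values in log2 units, where a step of 1 is a doubling. Background was taken from 23 antigenomic probe sets, whose means reached 6.10 and whose highest value on any array was 6.61, so a gene near 6 is close to background. A level counted as not above background on an array if it did not exceed that array's highest background probe set. Pvalb lay between 6.69 and 8.40 on 6 arrays, which were PV-tdTomato replicates 3 and 4 of both regions and PVCre cortex replicates 2 and 4. The general GABA neuron gene Gad1 read 8.88 and 7.40 on those PVCre cortex arrays and 11.63 or more on every other array. Xist, which female cells make, exceeded 12 on 6 of 8 PVCre arrays and 2 of 8 PV-tdTomato arrays, against the male label. Positive control probe sets lay 3.08 to 3.93 above negative ones on PVCre arrays and 4.16 to 4.85 above them on PV-tdTomato arrays. Of all genes, 53.3% differed between the lines in striatum and 53.5% in cortex by limma, so comparisons between the lines carry this difference between the array sets, and array set and line cannot be told apart. In pools of sorted cells, fewer cells of a type and less RNA per cell cannot be told apart either.

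Sequences before a listed start of 4 members are printed because they contrast genes at or near background in PVCre cortex with genes that stayed. They are the 250 bases before a RefSeq start of transcription in build GRCm38.p6, printed 5′ to 3′ on the gene's strand. RefSeq had a start for 9 of the 10 members. The Cxcl14 and Adarb2 windows lie inside the annotated gene, whose 5′ end is at 56296811 and 8202526. Those of Prox1 and Id2 lie directly before the annotated gene, so the windows are not placed alike. The windows are chr13:56296552-56296801 (minus strand) for Cxcl14, chr13:8202616-8202865 (plus strand) for Adarb2, chr1:190170828-190171077 (minus strand) for the first listed start of Prox1 and chr12:25096093-25096342 (minus strand) for Id2. Capitals mark matches, on either strand, to CANNTG (the E-box of basic helix-loop-helix factors), AGGTCA (a core of sites for nuclear receptors such as Nr2f2) or TAATTA (a core of homeodomain sites), and no marked match overlaps another.
Cxcl14: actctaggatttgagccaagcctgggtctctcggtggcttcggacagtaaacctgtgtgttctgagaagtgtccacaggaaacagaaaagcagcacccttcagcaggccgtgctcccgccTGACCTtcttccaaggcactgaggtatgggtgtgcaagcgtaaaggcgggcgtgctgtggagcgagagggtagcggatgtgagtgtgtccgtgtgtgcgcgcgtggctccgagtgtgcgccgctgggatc
Adarb2: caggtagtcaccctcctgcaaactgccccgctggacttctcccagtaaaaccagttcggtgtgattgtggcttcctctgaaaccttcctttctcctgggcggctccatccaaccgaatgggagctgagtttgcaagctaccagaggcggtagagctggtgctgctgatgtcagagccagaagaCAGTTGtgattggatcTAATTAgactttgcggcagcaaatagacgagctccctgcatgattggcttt
Prox1: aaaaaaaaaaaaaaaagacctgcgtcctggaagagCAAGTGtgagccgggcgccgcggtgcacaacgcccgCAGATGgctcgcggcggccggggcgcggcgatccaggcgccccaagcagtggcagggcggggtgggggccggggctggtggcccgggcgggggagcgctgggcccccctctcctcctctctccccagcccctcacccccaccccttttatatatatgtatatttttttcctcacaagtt
Id2: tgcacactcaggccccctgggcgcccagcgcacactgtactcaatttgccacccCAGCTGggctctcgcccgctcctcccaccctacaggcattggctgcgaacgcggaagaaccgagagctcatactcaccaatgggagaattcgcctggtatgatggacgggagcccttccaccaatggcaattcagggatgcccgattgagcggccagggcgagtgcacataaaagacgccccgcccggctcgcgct

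The Cxcl14 window held 1 AGGTCA match, printed as its reverse complement, and no E-box. The Adarb2 window held 1 E-box and 1 TAATTA, the Prox1 window 2 E-boxes and the Id2 window 1. Of 32851 RefSeq windows of this length, 66.2% held CANNTG, 14.0% AGGTCA and 4.84% TAATTA. The windows also differed in CpG dinucleotides, with 16 in Cxcl14, 7 in Adarb2, 20 in Prox1 and 18 in Id2, where the median over all windows was 6. These matches describe the printed letters and are not evidence of binding.

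The members separated into 8 that were lost in PVCre cortex and 2 that stayed. A member counted as lost if its highest PVCre cortex array lay under its lowest PV-tdTomato cortex array and its mean was at least 1 lower. The levels in these 2 groups chose the genes, so they are given as a description, with no test. The lost genes were Cxcl14, Adarb2, Ndnf, Reln, Lamp5, Kit, Cnr1 and Sncg, and the genes that stayed were Prox1 and Id2. Of all genes tested, 14.3% met the same definition; 29.7% had every PVCre cortex array under every PV-tdTomato cortex array, and 17.3% the reverse. Sncg was the member nearest to the limit on the inside, with a mean difference of -1.83 and a gap of 0.47 between the groups, and Prox1 the nearest on the outside, with a mean difference of -0.91 and an overlap between the groups. Leaving out PVCre cortex replicate 4 or PV-tdTomato cortex replicate 4 brought Prox1 in as a ninth lost gene, as did leaving out the 6 arrays low in Pvalb.

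**Figure D1:**
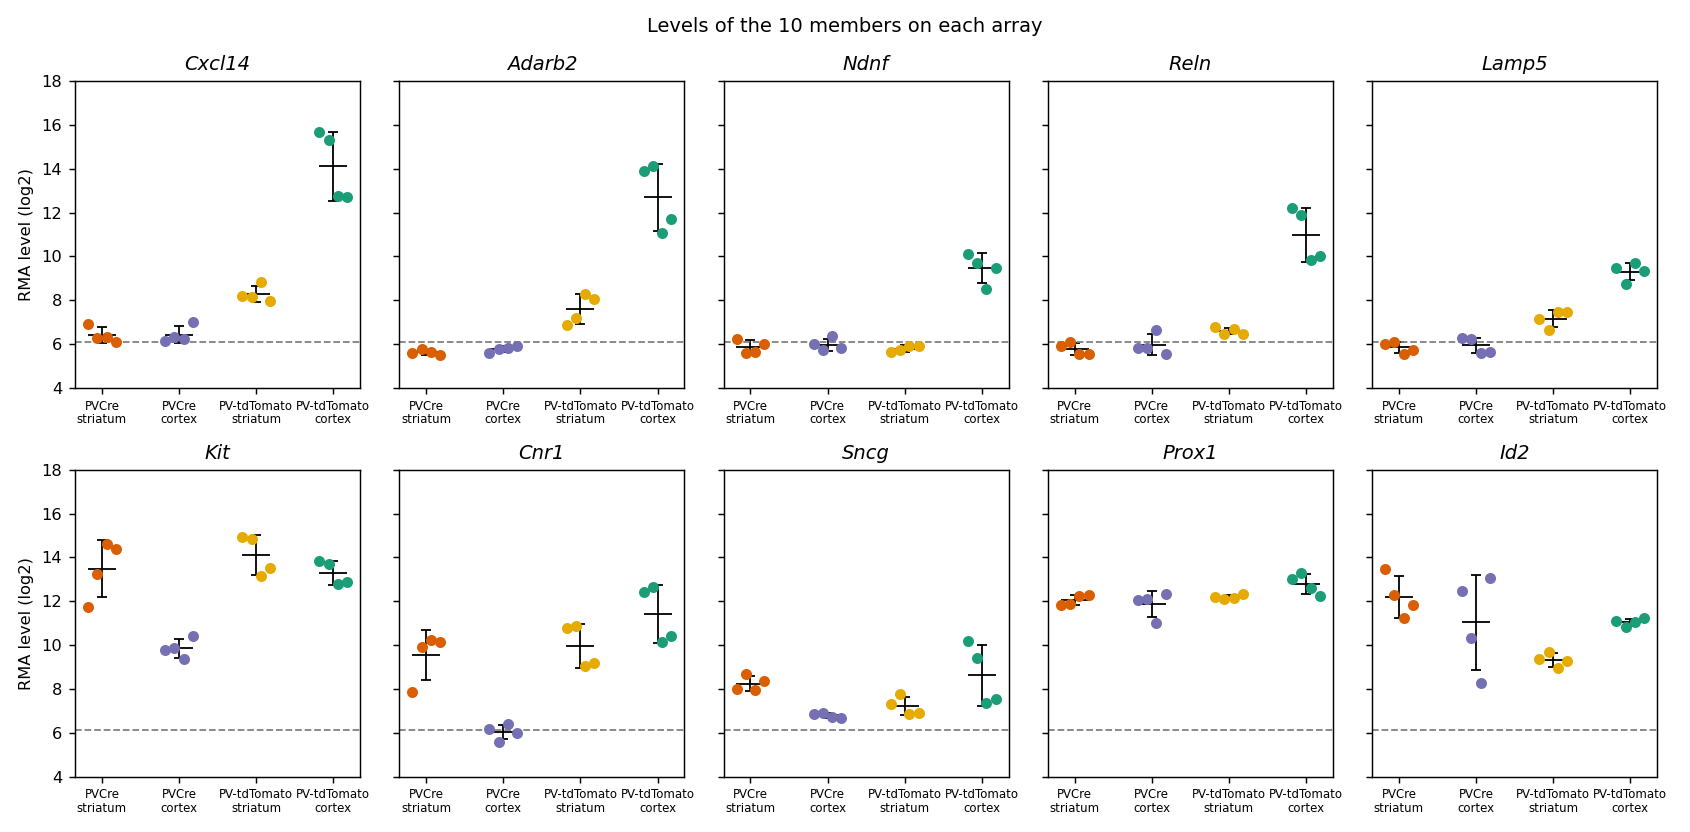
RMA level (log2, vertical axis) of each member in PVCre striatum, PVCre cortex, PV-tdTomato striatum and PV-tdTomato cortex; points are arrays in replicate order, horizontal marks the means, bars the SD over 4 arrays, and the dashed line the highest mean background level, 6.10. Cxcl14, Adarb2, Ndnf, Reln and Lamp5 stand high in PV-tdTomato cortex, Kit, Cnr1 and Sncg are low in PVCre cortex, and Prox1 stays near 12 in every group.

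Among the secreted members, Cxcl14, a chemokine made by several caudal interneuron classes, was at 6.94, 6.29, 6.31 and 6.09 in PVCre striatum and 6.14, 6.33, 6.24 and 7.03 in PVCre cortex, against 8.18, 8.16, 8.84 and 7.96 in PV-tdTomato striatum and 15.66, 15.29, 12.77 and 12.71 in PV-tdTomato cortex. It was thus bright in PV-tdTomato cortex and close to background in both PVCre groups, with 2 of 4 PVCre cortex arrays not above background. The mean difference between the lines in cortex was -7.67. Reln, which encodes the extracellular guidance protein reelin, was at 5.91, 6.11, 5.55 and 5.55 in PVCre striatum and 5.82, 5.82, 6.65 and 5.56 in PVCre cortex, against 6.76, 6.46, 6.70 and 6.47 in PV-tdTomato striatum and 12.22, 11.88, 9.82 and 10.01 in PV-tdTomato cortex. Only the PV-tdTomato cortex arrays stood well clear of background, and PVCre cortex lay 5.02 lower on average. Ndnf, a secreted neuron-derived factor of layer 1 neurogliaform cells, was at 6.23, 5.60, 5.66 and 6.01 in PVCre striatum and 5.99, 5.72, 6.35 and 5.83 in PVCre cortex. Its PV-tdTomato levels were 5.62, 5.75, 5.89 and 5.92 in striatum and 10.12, 9.71, 8.52 and 9.48 in cortex. Ndnf was therefore near background in 3 of the 4 groups.

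Adarb2 encodes an RNA-editing enzyme relative with no known editing activity. It was at 5.58, 5.78, 5.62 and 5.51 in PVCre striatum and 5.59, 5.75, 5.80 and 5.90 in PVCre cortex, against 6.87, 7.21, 8.29 and 8.05 in PV-tdTomato striatum and 13.88, 14.13, 11.09 and 11.70 in PV-tdTomato cortex. It was the only lost member that was not above background on any PVCre cortex array, and PV-tdTomato cortex was at least 86.3-fold higher, a bound set against each array's background. Of all genes, 2.27% met the definition of loss with no PVCre cortex array above background. Lamp5, a membrane protein of synaptic vesicles that names a neurogliaform class, was at 6.01, 6.09, 5.57 and 5.72 in PVCre striatum and 6.28, 6.21, 5.61 and 5.64 in PVCre cortex, against 7.12, 6.62, 7.45 and 7.45 in PV-tdTomato striatum and 9.48, 8.74, 9.68 and 9.34 in PV-tdTomato cortex. Its 4 PV-tdTomato cortex arrays were close to each other, within 0.93, whereas those of Adarb2 spanned 3.05.

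Kit and Cnr1 had another pattern: they were lower in PVCre cortex than in any other group and far above background in the striatum of both lines. Kit, the receptor tyrosine kinase for stem cell factor, was at 11.74, 13.26, 14.61 and 14.38 in PVCre striatum and 9.76, 9.87, 9.35 and 10.41 in PVCre cortex. In the PV-tdTomato line it was at 14.93, 14.84, 13.13 and 13.52 in striatum and 13.85, 13.70, 12.78 and 12.87 in cortex. Kit thus remained far above background in PVCre cortex even though it met the definition of loss. Cnr1, the CB1 cannabinoid receptor that inhibits transmitter release, was at 7.84, 9.93, 10.25 and 10.14 in PVCre striatum and 6.15, 5.59, 6.39 and 6.00 in PVCre cortex, against 10.79, 10.88, 9.03 and 9.19 in PV-tdTomato striatum and 12.43, 12.67, 10.16 and 10.42 in PV-tdTomato cortex. On 3 of 4 PVCre cortex arrays Cnr1 was not above background. Sncg, which encodes gamma-synuclein, was at 7.98, 8.68, 7.94 and 8.35 in PVCre striatum and 6.87, 6.91, 6.72 and 6.69 in PVCre cortex. Its PV-tdTomato levels were 7.33, 7.77, 6.88 and 6.90 in striatum and 10.17, 9.42, 7.37 and 7.52 in cortex. Sncg shared this pattern only in part: PV-tdTomato striatum replicates 3 and 4 were level with PVCre cortex, where all 4 arrays were slightly above background. Within the PVCre line, striatum exceeded cortex by 3.65 for Kit, 3.51 for Cnr1 and 1.44 for Sncg, but by less than 0 for Cxcl14 (-0.03), Adarb2 (-0.14), Ndnf (-0.10), Reln (-0.18) and Lamp5 (-0.09). These values rest on the PVCre cortex arrays that chose the genes and are not tested.

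The members that stayed were a pair of nuclear regulators. Prox1, a homeodomain transcription factor needed for the maturation of caudal interneurons, was at 11.83, 11.88, 12.25 and 12.29 in PVCre striatum and 12.06, 12.08, 11.01 and 12.31 in PVCre cortex, against 12.21, 12.12, 12.13 and 12.31 in PV-tdTomato striatum and 12.996, 13.27, 12.62 and 12.23 in PV-tdTomato cortex. All 16 arrays lay far above background, and every pair of groups overlapped. Id2, which blocks basic helix-loop-helix factors by binding them, was at 13.46, 12.31, 11.23 and 11.81 in PVCre striatum and 12.46, 10.31, 8.29 and 13.07 in PVCre cortex, against 9.38, 9.71, 8.96 and 9.26 in PV-tdTomato striatum and 11.09, 10.84, 11.05 and 11.22 in PV-tdTomato cortex. Its PVCre cortex arrays spread over 4.78, while its PV-tdTomato cortex arrays stayed within 0.38 of each other. The lowest PVCre cortex array of both genes was replicate 3, which had the highest Pvalb and Gad1 of that group (12.48 and 13.66).

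Prox1 and Id2 are also made by glia, Prox1 in oligodendrocytes and Id2 in several glial types, and glial markers were present on these arrays. The mean level of 9 microglial markers was 8.67, 8.31, 7.497 and 7.90 in PVCre striatum and 9.30, 7.78, 7.26 and 9.18 in PVCre cortex. It was 5.41 to 5.68 in PV-tdTomato striatum and 5.33 to 5.76 in PV-tdTomato cortex, where 8 and 7 of the 9 markers were not above background on any array. In PVCre striatum the arrays had the same order for Id2 and for the microglial markers, and in PVCre cortex replicates 1 and 4 were high and replicate 3 lowest for both. The mean of 9 oligodendrocyte markers was 13.93 to 14.17 in PVCre striatum, 14.62 to 15.00 in PVCre cortex, 12.46 to 14.53 in PV-tdTomato striatum and 12.83 to 14.89 in PV-tdTomato cortex, with none at background. Prox1 and these markers had the same order of arrays in PVCre cortex, but not in the other groups. In PV-tdTomato cortex the markers were at 12.83, 12.88, 14.89 and 14.45, whereas Prox1 was highest on replicates 1 and 2. The 10 astrocyte markers averaged 7.20 to 7.60 in PVCre striatum, 6.29 to 7.07 in PVCre cortex, 7.14 to 8.002 in PV-tdTomato striatum and 6.43 to 7.96 in PV-tdTomato cortex, with Gfap not above background on any array. The part of glial RNA in the levels of Id2 and Prox1 was not tested.

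**Figure D2:**
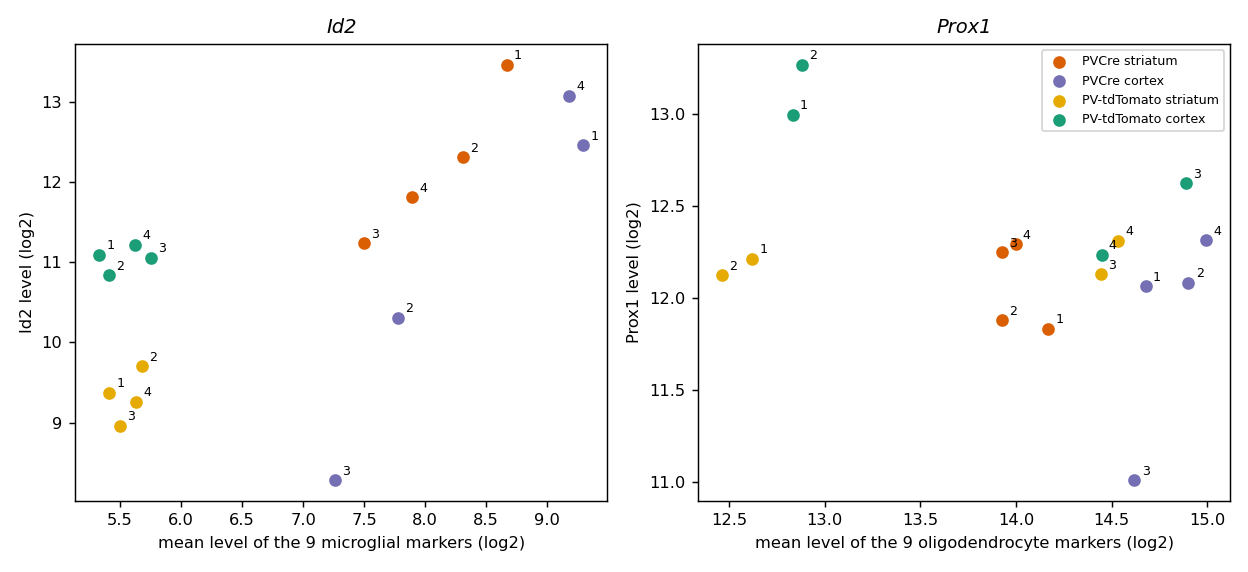
Level of Id2 against the mean level of 9 microglial markers (left) and of Prox1 against the mean of 9 oligodendrocyte markers (right), all log2; each point is an array with its replicate number, coloured by group. The PV-tdTomato arrays lie between 5.33 and 5.76 on the microglial axis and the PVCre arrays between 7.26 and 9.30, where Id2 spans 8.29 to 13.46.

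The comparison of regions in the PV-tdTomato line asked which members differ between striatal and cortical cells sorted by the same reporter. Of the 10 members, 5 fell in striatum and none rose by limma with Benjamini-Hochberg adjustment over all genes, where 0.596% of all genes fell and 1.73% rose (2.33% in all). Cxcl14 fell by 5.82 ± 0.56 (SE, adjusted p = 2.67e-05), Adarb2 by 5.10 ± 0.55 (adjusted p = 6.25e-05) and Reln by 4.38 ± 0.45 (adjusted p = 4.26e-05). Ndnf was not above background on any striatal array, and cortex was at least 8.2-fold higher (limma adjusted p = 2.74e-06). Lamp5 fell by 2.15 ± 0.24 (adjusted p = 8.99e-05). In these 5 genes and in Id2 every striatal array lay under every cortical one, as in 2.27% of all genes, and in 3.73% every striatal array lay above. Part of this pattern was known when the members were chosen, and the cortical arrays are those that define loss, so the comparison says nothing about which members were lost.

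The other 5 members did not pass in this comparison. Sncg differed by -1.40 ± 0.49 (SE, adjusted p = 0.28), and it passed without the 6 arrays low in Pvalb (-2.25, limma adjusted p = 0.00504). Cnr1 differed by -1.45 ± 0.66 (adjusted p = 0.602) and Id2 by -1.72 ± 0.78 (adjusted p = 0.595), and both passed with the replicate number as a block (limma adjusted p = 0.00718 and 0.00748). Id2 also passed when only these 2 groups were fitted (limma adjusted p = 0.00225). The main SE pools the spread of all 4 groups. The SD of Id2 was 2.18 in PVCre cortex and 0.95 in PVCre striatum, but 0.31 in PV-tdTomato striatum and 0.16 in PV-tdTomato cortex. Its main p therefore also reflects arrays outside this comparison. The block rests on numbers that do not match best one to one: cortical replicate 1 was the best match of striatal replicates 1 and 2, and replicate 3 that of replicates 3 and 4. Prox1 differed by -0.59 ± 0.26 (adjusted p = 0.58). Kit was the member with a positive difference, 0.81 ± 0.57 (adjusted p = 0.908). The median difference of the members was -1.94, against 0.02 over all genes tested.

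**Figure D3:**
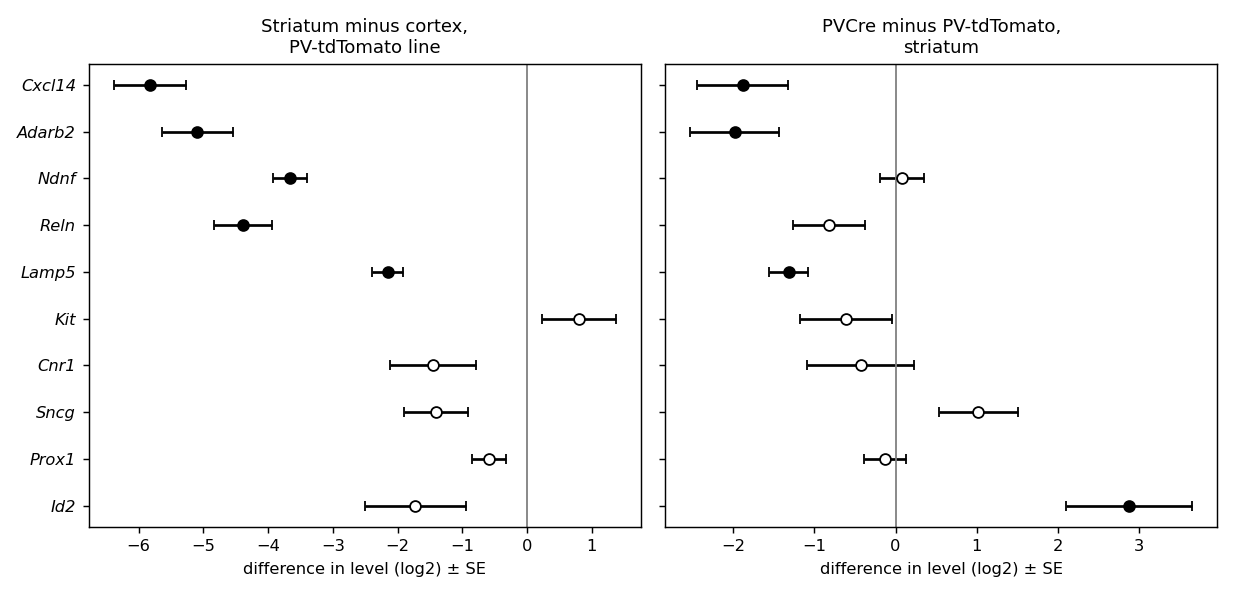
Difference in level (log2, horizontal axis) of each member for striatum minus cortex in the PV-tdTomato line (left) and PVCre minus PV-tdTomato in striatum (right); bars are SE from the limma fit, filled points passed an adjusted p of 0.05 and open points did not. Filled points are Cxcl14, Adarb2, Ndnf, Reln and Lamp5 on the left and Cxcl14, Adarb2, Lamp5 and Id2 on the right.

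The comparison of lines within the striatum used arrays that did not separate the lost members from the others, although the PV-tdTomato striatal arrays also entered the comparison above. Of the 10 members, 3 were lower in PVCre striatum and 1 was higher, where 35.1% of all genes fell and 18.3% rose, so the members' share was close to that of all genes. Quantile normalization moved the part of called genes that were higher to 49.4%, against 34.2% as deposited. Cxcl14 fell by 1.88 ± 0.56 (SE, adjusted p = 0.0112), Adarb2 by 1.98 ± 0.55 (adjusted p = 0.00731) and Lamp5 by 1.32 ± 0.24 (adjusted p = 0.000398), all between a low PV-tdTomato level and background. Id2 rose by 2.87 ± 0.78 (adjusted p = 0.00641), and its lowest PVCre striatal array (11.23) lay above its highest PV-tdTomato one (9.71). All 9 microglial markers rose in the same comparison, with a median difference of 2.41. Relatives of Id2 did not all move with it: Id1 averaged 7.53 in PVCre striatum and was not above background on any PV-tdTomato striatal array, at least 2.16-fold higher in PVCre (limma adjusted p = 2.03e-05), while Id3 averaged 6.13 and 6.02 in these groups.

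The other members did not pass between the lines in striatum. Reln differed by -0.82 ± 0.45 (SE, adjusted p = 0.138) and Sncg by 1.02 ± 0.49 (adjusted p = 0.093), although the arrays of the 2 lines did not overlap for either gene. Over all genes, 33.2% had every PVCre striatal array under every PV-tdTomato one and 17.0% the reverse. The SE pools the spread of all 4 groups. In PV-tdTomato cortex, outside this comparison, the SD was 1.24 for Reln and 1.39 for Sncg. In PVCre and PV-tdTomato striatum it was 0.28 and 0.15 for Reln, and 0.35 and 0.42 for Sncg. Reln passed without the 6 arrays low in Pvalb (limma adjusted p = 0.0235), when only these 2 groups were fitted (0.00346) and with the replicate block (0.0171). That block has no basis between the lines, where striatal arrays of equal number correlated at r = -0.43 to -0.08 after group means were removed. Kit differed by -0.61 ± 0.57 (adjusted p = 0.386), Cnr1 by -0.43 ± 0.66 (adjusted p = 0.607), Prox1 by -0.13 ± 0.26 (adjusted p = 0.696) and Ndnf by 0.08 ± 0.27 (adjusted p = 0.826). The striatal level of Kit and Cnr1 was thus not shown to differ between the lines. The difference of Kit was -0.026 without PVCre striatum replicate 1 and -1.39 without the 6 arrays low in Pvalb, and passed in neither case (limma adjusted p = 0.97 and 0.11). PVCre striatum replicate 1 was the lowest of its group for Kit and Cnr1 and also for Gad1 (11.92), and had the highest mean of 7 endothelial markers (9.45 against 7.20 to 7.82 on the other 3 arrays).

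The PV-tdTomato cortex arrays also differed among themselves, and not in Pvalb alone. In replicates 1 to 4 the mean of 10 pan-neuronal genes was 12.27, 12.01, 10.44 and 10.50. That of 7 pan-GABA genes was 10.62, 10.44, 8.85 and 8.83. The mean of 9 oligodendrocyte markers went the other way, at 12.83, 12.88, 14.89 and 14.45. The part of these differences in the levels of the members was not tested. Replicates 1 and 2, with Pvalb at 12.17 and 11.13, had the higher levels of Cxcl14, Adarb2, Reln, Cnr1 and Sncg, and replicates 3 and 4, with Pvalb at 6.96 and 7.19, the lower ones. Kit, Ndnf and Prox1 were also lower on replicates 3 and 4, and Lamp5 and Id2 were not. Npy, the neuropeptide of neurogliaform and many somatostatin cells, did not follow it either: it was at 17.37, 16.76, 17.43 and 17.06 in PV-tdTomato cortex. Npy was at 11.96, 7.79, 11.99 and 9.72 in PVCre striatum, 12.63, 8.50, 14.28 and 7.59 in PVCre cortex and 12.65, 11.82, 14.13 and 14.52 in PV-tdTomato striatum. PVCre cortex replicate 3 therefore kept Npy at a high level while Reln, Ndnf, Lamp5 and Adarb2 were at 6.65, 6.35, 5.61 and 5.80. Reln and Ndnf were slightly above the background of that array (6.23), and on no other PVCre cortex array. All 4 PV-tdTomato cortex arrays held the neurogliaform markers, including the replicates lowest in Pvalb.

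Genes of the same interneuron classes outside the member list were counted in the same comparisons. These lists were chosen with earlier results of these data known, and the comparisons reuse the cortical arrays that define loss. The counts and p-values of all the lists therefore describe these arrays and are no independent support for the pattern of the members. Of 16 further neurogliaform genes, 6 fell and none rose in PV-tdTomato striatum, where 0.596% of all genes fell and 1.73% rose. In PVCre cortex 12 of them fell and none rose, where 34.4% of all genes fell and 19.1% rose. Pde11a, a phosphodiesterase gene, was at 5.75 ± 0.09 in PV-tdTomato striatum and 9.10 ± 0.81 in PV-tdTomato cortex (SD, n = 4; limma adjusted p = 6.51e-06), with no striatal array above background and cortex at least 6.38-fold higher. Pde11a and Krt73 of this list passed the filter on low means (5.53 over all 16 arrays) only through PV-tdTomato cortex. Their calls therefore describe the levels and are no support. Egln3, an oxygen-sensing hydroxylase, fell by 3.76 ± 0.54 (SE) in PV-tdTomato striatum and by 4.97 ± 0.54 in PVCre cortex. Sv2c, a synaptic vesicle protein, was at 5.67 ± 0.12 in PVCre cortex and 9.41 ± 0.49 in PV-tdTomato cortex (SD, n = 4; limma adjusted p = 1.3e-07), which is at least 8.84-fold higher in PV-tdTomato cortex.

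Of 11 genes of the Vip and Cck classes tested, 6 fell in PV-tdTomato striatum, as did 0.596% of all genes, and 10 fell in PVCre cortex, as did 34.4% of all genes. None rose in either comparison. Crispld2, also listed, was not above background on any array and was left out by the filter on low means. The counts are thus partly set by that filter. Vip, a neuropeptide gene, was at 5.99, 5.40, 5.71 and 6.12 in PVCre cortex, against 14.82, 15.31, 9.55 and 12.54 in PV-tdTomato cortex. PV-tdTomato cortex was at least 110.3-fold higher (limma adjusted p = 1.79e-05). Htr3a, the serotonin-gated channel subunit common to caudal interneurons, was at 5.76 ± 0.10 in PVCre cortex and 12.18 ± 2.14 in PV-tdTomato cortex (SD, n = 4; limma adjusted p = 1.6e-05), at least 60.1-fold higher in PV-tdTomato cortex. Calb2, which encodes calretinin, was not above background on any PVCre cortex array and was at least 23.8-fold higher in PV-tdTomato cortex (limma adjusted p = 9.93e-06).

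Of 5 caudal transcription factors tested, 4 fell in PV-tdTomato striatum (0.596% of all genes) and 5 fell in PVCre cortex (34.4% of all genes). None rose. Sp8, also listed, was not above background on any array and was left out by the filter on low means. Npas1 averaged 5.22, 5.27 and 5.98 in PVCre striatum, PVCre cortex and PV-tdTomato striatum and passed the filter only through PV-tdTomato cortex. The counts and the Npas1 call are thus partly set by the filter. Nr2f2, a nuclear receptor that marks the caudal eminence, was at 5.35, 5.22, 5.27 and 5.33 in PVCre cortex, against 11.17, 11.38, 7.997 and 8.49 in PV-tdTomato cortex. No PVCre cortex array was above background, and PV-tdTomato cortex was at least 11.2-fold higher (limma adjusted p = 4.72e-05). Npas3 fell by 3.11 ± 0.43 (SE, limma adjusted p = 4.51e-05) in PVCre cortex. Npas1 was not above background on any PVCre cortex array and was at least 3.89-fold higher in PV-tdTomato cortex (limma adjusted p = 0.00025). Prox1 thus stayed near 12 on arrays where Nr2f2 was at background. Pan-neuronal genes also fell in PVCre cortex, 6 of 10 with 1 risen, and pan-GABA genes 5 of 7 with none risen, against 34.4% lower and 19.1% higher over all genes. The part of a lower share of neurons in these falls was not tested.

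**Figure D4:**
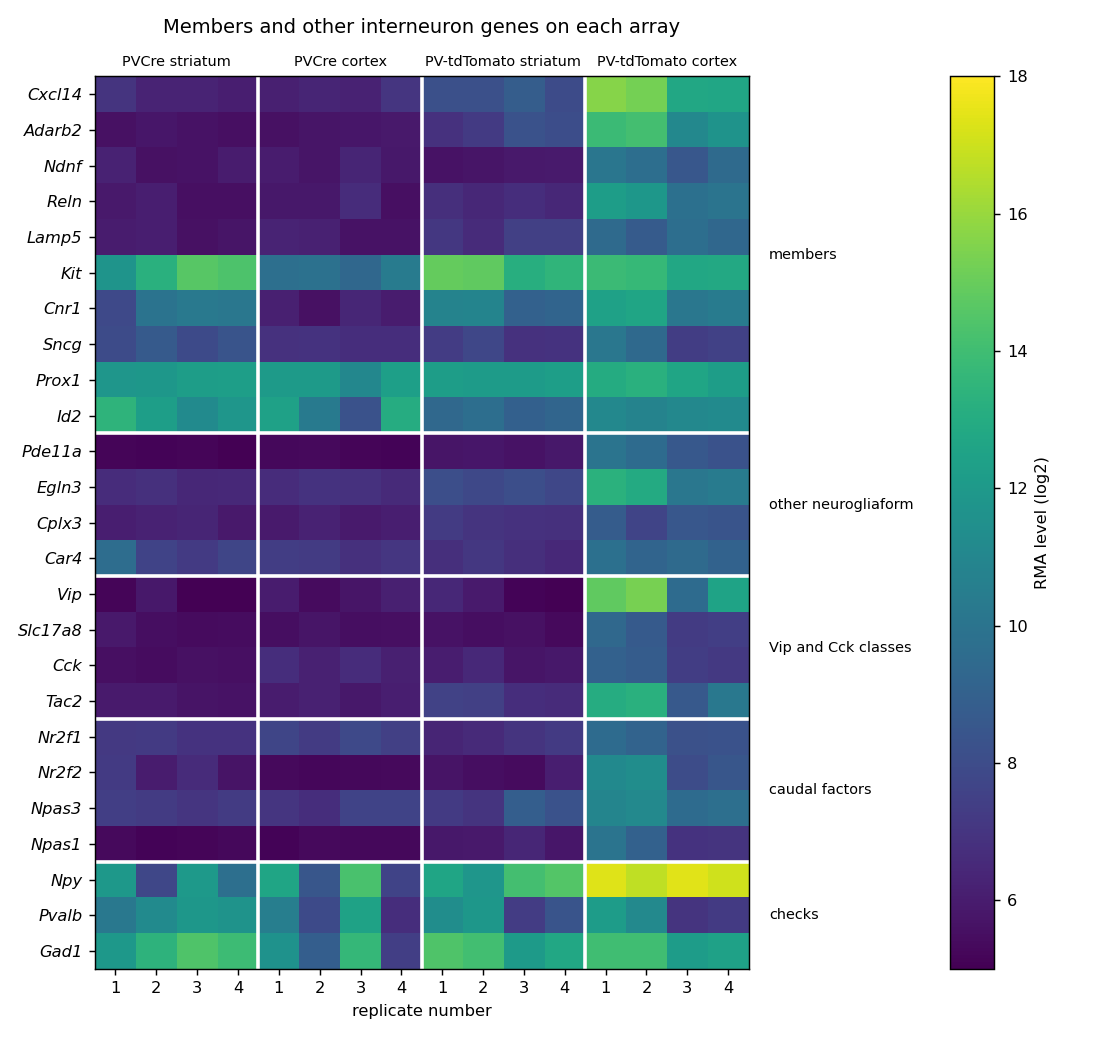
RMA level (log2, colour) of the members, of the 4 genes of smallest p for striatum minus cortex in the PV-tdTomato line from each of 3 lists, and of Npy, Pvalb and Gad1; columns are arrays in replicate order within PVCre striatum, PVCre cortex, PV-tdTomato striatum and PV-tdTomato cortex. Rows such as Cxcl14, Adarb2, Reln and Vip are bright in PV-tdTomato cortex and dark elsewhere, which for the list genes follows from how they were picked; Prox1, Id2, Kit, Cnr1, Npy, Pvalb and Gad1 are bright in other groups too.

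In PVCre striatum, 5 of 16 neurogliaform genes fell and 1 rose, and 3 of 11 Vip and Cck genes fell and 1 rose. These shares are close to the 35.1% lower over all genes and show nothing particular to these 2 lists. Of 5 caudal transcription factors tested, none fell or rose, and nothing is read from so few genes. Without the 6 arrays low in Pvalb, 7 neurogliaform genes fell and 1 rose, and 8 Vip and Cck genes fell and none rose. Of the caudal transcription factors, 1 fell and 1 rose. In that setting 7 of 10 pan-neuronal and 6 of 7 pan-GABA genes also fell, with none risen. The share over all genes is not given for it, so nothing particular to the lists is read from these counts. Partners and relatives of the members moved both ways. Of 18 tested, 10 fell and 2 rose in PVCre cortex, 9 fell and 1 rose in PVCre striatum, and 1 rose and none fell in PV-tdTomato striatum. Over all genes, 34.4% fell and 19.1% rose in PVCre cortex, 35.1% and 18.3% in PVCre striatum, and 0.596% and 1.73% in PV-tdTomato striatum. Mgll, the lipase that ends signalling by the cannabinoid 2-AG, fell by 2.55 ± 0.21 (SE, limma adjusted p = 7.06e-07) in PVCre cortex and by 2.37 ± 0.21 (limma adjusted p = 1.12e-06) in PVCre striatum. Cnr1 itself was not shown to differ between the lines in striatum. Lrp8, a reelin receptor, was at 7.22 ± 0.27 in PVCre cortex and 9.09 ± 0.44 in PV-tdTomato cortex (SD, n = 4; limma adjusted p = 3.53e-06), and in PV-tdTomato striatum it differed from cortex by -0.45 ± 0.19 (SE, limma adjusted p = 0.513). Kitl, the ligand of Kit, averaged 7.81 in PVCre striatum, 7.09 in PVCre cortex, 7.25 in PV-tdTomato striatum and 6.77 in PV-tdTomato cortex. Adar, a relative of Adarb2 with editing activity, fell by 2.24 ± 0.45 (SE, limma adjusted p = 0.000823) in PVCre striatum.

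Genes whose profile was most like the mean of the 8 lost members were ranked by Pearson r over the 16 arrays. These arrays fall into 4 groups, so r mainly follows the group means and is a description. Predicted models and clones were left out of the ranking. The 8 nearest of the other tested genes outside the list were Rgs12 (r = 0.978), Sema3c (0.969), Egfem1 (0.968), Htr3a (0.968), Egln3 (0.967), Frem1 (0.966), Lix1 (0.964) and Ccn3 (0.964). Rgs12, a regulator of G protein signalling, averaged 6.31 ± 0.06 in PVCre striatum, 5.79 ± 0.08 in PVCre cortex, 6.81 ± 0.16 in PV-tdTomato striatum and 9.53 ± 1.43 in PV-tdTomato cortex (SD, n = 4 each). Sema3c, a secreted guidance protein, averaged 6.46 ± 0.81, 5.69 ± 0.09, 7.68 ± 0.90 and 11.78 ± 1.45 in PVCre striatum, PVCre cortex, PV-tdTomato striatum and PV-tdTomato cortex. In the first 3 of these groups Frem1 averaged 5.45, 5.24 and 5.83, and Ccn3 5.02, 5.14 and 6.05. Both passed the filter on low means only through PV-tdTomato cortex, so their rank is partly set by the filter. Among the members, r with this profile was 0.968 for Cxcl14 and 0.965 for Adarb2, but 0.522 for Kit, 0.771 for Prox1 and -0.09 for Id2. The lost members are part of that mean, so their own r is raised by construction.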

How the data were processed

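RNA of sorted cells was measured on 16 Affymetrix mouse transcriptome arrays. The deposited values are log2 levels that the authors made with RMA; the submitters' processing notes also name Affymetrix Expression Console. Versions, and which arrays were normalized together, are not stated. Clusters with a single gene in the platform annotation were kept (30890 of 65956), symbols of 829 were updated by Entrez number, and for 355 genes with several clusters the one with the highest mean was used. Genes with a mean log2 level under the lower tertile, 5.53, were left out. Tests used the R 4.3.3 package limma 3.58.1 (1 mean per group, all arrays in 1 fit, Benjamini-Hochberg adjustment over 20285 genes, threshold 0.05); other work used Python 3.11.15, pandas 2.3.3, numpy 2.4.6 and matplotlib 3.10.9. The fits were checked on simulated data. No 2 arrays held identical values. Replicates are pools of sorted cells, so p-values reflect only how much pools vary; the number of arrays limits precision.

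Genes named beside the members were those of smallest p in each list (at most 4), Pvalb, Gad1 and Npy. The 8 nearest in profile were also named, with predicted models and clones left out. Krt73, Crispld2 and Sp8 were named only because of the filter on low means. Id3, Kitl, Gfap and Xist were named after their values were seen. Members and lists were chosen with earlier results of these data known. After group means were removed, striatal and cortical PV-tdTomato arrays of equal number correlated (r = 0.58 to 0.76 across genes, 4 pairs). The main fits did not use this pairing, and the numbers entered only as the replicate block among the alternatives. The best matches (cortical replicate 1 for striatal 1 and 2, and 3 for 3 and 4) follow the division into arrays high and low in Pvalb rather than the single number. Numbers did not pair between the lines. In PVCre cortex the titles number the replicates 1 to 4 and the descriptions otherwise; the titles were used, so a block there has no settled meaning. Alternatives were other filters, quantile normalization, centring on array medians, another prior, fits on 2 groups, a replicate block, each array left out and, chosen after seeing the data, dropping the 6 arrays lowest in Pvalb.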

Additional observations from a re-analysis of the deposited data

Results flagged for a closer look

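Of 52 sets of 4 arrays tested for a sample far from the others (10 members with Pvalb, Gad1 and Npy, in 4 groups), 1 had such a sample, and chance gives about 1 in 20. Cnr1 in PVCre striatum replicate 1 was at 7.84, against 9.93, 10.25 and 10.14 in replicates 2, 3 and 4. The same array had the lowest Kit and Gad1 and the highest endothelial marker mean of its group.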

How the results depend on the processing

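In the PV-tdTomato line, the 5 members called lower in striatum were called under each of the 24 alternatives, and in striatum Cxcl14, Adarb2, Lamp5 and Id2 kept their calls between the lines. Of 240 member values per comparison, 236 and 228 kept direction and call. Leaving out 1 array gave 5 members lower in PV-tdTomato striatum each time, and 1 to 2 higher and 3 lower in PVCre striatum; 2 were higher with quantile normalization, with only the 2 groups compared and with the replicate block, where Sncg joined Id2. Lost members numbered 8 to 9 when 1 array was left out. In PVCre striatum, quantile normalization turned the differences of Ndnf (-0.0072), Prox1 (0.28) and Cnr1 (0.11), and leaving out PVCre striatum replicate 1 those of Ndnf (-0.041) and Cnr1 (0.14), none of them called; with 1 array left out Ndnf ranged from -0.041 to 0.17 and Cnr1 from -0.74 to 0.14. Quantile normalization moved the median of all genes by 0.21 in striatum and 0.23 in cortex between the lines, with 49.4% and 52.1% of called genes higher, against 34.2% and 35.7% as deposited. Genes higher in PVCre numbered 6872 in striatum and 7313 in cortex with no filter, and 2002 and 2154 with a stricter filter on low means. Between regions in PV-tdTomato, 219 genes were higher with a stricter filter on low means, 43 lower with only the 2 groups, and 653 higher and 380 lower without the 6 arrays low in Pvalb. With 1 array left out these counts were 265 to 386 higher and 71 to 151 lower; PV-tdTomato striatum replicate 1 (72) and cortex replicates 1 (72) and 2 (71) lowered the count most. With 1 array left out, PVCre striatum had 3233 to 3842 genes higher and 6529 to 7139 lower, PVCre cortex 3359 to 3929 and 6239 to 7150. Of genes of the other lists in PVCre cortex, 1 in place of 2 was higher with a stricter filter on low means, with centring on medians, and with the replicate block, and 1 to 2 higher and 35 to 37 lower with 1 array left out. No other cluster existed for any member, so that alternative gave no value. The causes of these changes were not tested. Levels near 6 are limited by background.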
